A study of Mus musculus with 22 samples.

Results

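Every mouse autosome is telocentric, so its sequence starts beside the centromere. The regions described here are the first 5 Mb of sequence with a measured level at that end of each of the 19 autosomes. They were taken as the bins with a level above 0 that start within 5 Mb after the first such bin, which gave 95 of 2641 bins of 1 Mb for 5hmC and 949 of 26327 bins of 100 kb for 5mC. These are 3.94% and 3.95% of the autosomal bins that had a level above 0 and below 1 in every library. The windows began at base 3000001 (mm10) in 17 autosomes and, in the 100 kb bins, at 3100001 on chromosomes 10 and 11. All 57 autosomal 1 Mb bins and all 572 autosomal 100 kb bins before them were listed at 0, and 1 further 100 kb bin inside the window of chromosome 19 (chr19:6700001-6800000) was listed at 0 in every library and left out. The other bins of the same autosome, 2318 for 5hmC and 23062 for 5mC in all, served as the rest.

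The libraries came from cortex (the whole cerebral cortex without the hippocampus), olfactory bulb and cerebellum of female C57BL/6 mice aged 8 weeks, and the labels give no genotype or treatment beyond the strain. TAB-seq, which reads only 5hmC as C, was done on 3 libraries per tissue, and oxBS-seq, which reads only 5mC as C, on 3 libraries from cortex, 2 from olfactory bulb and 2 from cerebellum. Per the labels the replicates of a tissue came from independent mice. Each bin carries only its level, a fraction, without read counts, so the depth of a bin is unknown and the spread between libraries (SD) is the only error. The tissues are bulk tissues, in which another mixture of cells and another level within the cells cannot be told apart, and levels in bins hold no marker gene expression with which to check the labelled tissue. Over all bins, libraries of the same tissue correlated at r of 0.994 to 0.998 for 5hmC and 0.947 to 0.982 for 5mC, against 0.783 to 0.944 and 0.801 to 0.918 between tissues.

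DNA methylation (5mC) is placed on CpG sites by the DNMT enzymes, and TET enzymes oxidize it to 5hmC, which accumulates in neurons, above all over gene bodies. Sequence beside a centromere borders the satellite arrays of pericentric heterochromatin, a compact form of chromatin that is known for dense 5mC, few genes and many repeats. Most of these arrays is not assembled, and the windows hold the first assembled sequence with measured levels.

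The first 300 assembled bases of 4 windows are given as examples of the border. They were not classed by kind of repeat and do not stand for the starts of the other autosomes. They are printed for chromosomes 3 and 9, whose windows lay furthest below their rest for 5hmC in cortex and in olfactory bulb respectively, and for chromosomes 4 and 11, the start most like each of them. They are RefSeq GRCm38.p6 sequence, plus strand, 5′ to 3′, with CpG sites in capitals.
chr3:3000001-3000300: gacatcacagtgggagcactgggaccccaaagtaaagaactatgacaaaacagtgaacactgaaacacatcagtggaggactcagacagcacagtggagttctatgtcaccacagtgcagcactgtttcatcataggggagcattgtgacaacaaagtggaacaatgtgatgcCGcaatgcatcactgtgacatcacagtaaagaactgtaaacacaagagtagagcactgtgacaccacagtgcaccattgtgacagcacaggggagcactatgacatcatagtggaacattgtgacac
chr4:3050001-3050300: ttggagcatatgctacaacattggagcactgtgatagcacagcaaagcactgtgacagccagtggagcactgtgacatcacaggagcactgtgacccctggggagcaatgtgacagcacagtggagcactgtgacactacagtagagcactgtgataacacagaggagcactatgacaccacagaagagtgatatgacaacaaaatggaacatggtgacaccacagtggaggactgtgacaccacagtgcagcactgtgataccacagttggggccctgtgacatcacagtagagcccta
chr9:3000001-3000300: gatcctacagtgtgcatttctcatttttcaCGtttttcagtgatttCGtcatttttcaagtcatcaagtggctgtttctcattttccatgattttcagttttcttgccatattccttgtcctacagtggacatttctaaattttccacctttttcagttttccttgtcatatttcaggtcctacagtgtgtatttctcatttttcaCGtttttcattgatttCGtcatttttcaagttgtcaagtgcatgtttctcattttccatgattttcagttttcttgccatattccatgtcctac
chr11:3100001-3100300: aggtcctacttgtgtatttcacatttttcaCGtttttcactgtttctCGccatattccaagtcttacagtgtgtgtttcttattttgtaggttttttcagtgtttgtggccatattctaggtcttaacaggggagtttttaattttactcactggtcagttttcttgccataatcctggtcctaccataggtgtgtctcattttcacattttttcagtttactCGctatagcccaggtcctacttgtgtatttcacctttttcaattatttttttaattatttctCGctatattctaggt
The stretch of chromosome 3 held 1 CpG site, that of chromosome 4 held 0, and those of chromosomes 9 and 11 held 4 each. The starts of chromosomes 3 and 4 shared 39 words of 12 bases (either strand), of 288 and 268 distinct words, and those of chromosomes 9 and 11 shared 13, of 232 and 277. They were the 2 pairs with 10 or more shared words among 153 pairs of window starts, taken from 18 of the 19 autosomes.

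Beyond this border the windows held genes and were not uniform. Genes of any type covered 45.2% of the windows and 48.5% of the rest (1 Mb bins), repeats soft-masked in the RefSeq sequence covered 39.7% and 33.1%, and there were 8.03 and 8.57 CpG sites per kb. The soft-masked share of a window ran from 26.1% on chromosome 17 and 30.2% on chromosome 2 to 52.9% on chromosome 3 and 60.2% on chromosome 14. GC content ran from 38.1% on chromosome 3 to 47.8% on chromosome 19. The windows overlapped 907 protein-coding genes, 4.36% of the 20807 on autosomes, with only 8 on chromosome 3 and 185 on chromosome 19. Of olfactory receptor genes (Olfr), 10 of 1128 overlapped a window, of vomeronasal receptor genes (Vmn1r and Vmn2r) 23 of 329, and of zinc finger genes (Zfp) 23 of 385. Most of them (8, 20 and 16) were on chromosome 7.

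5hmC was lower in the windows than in the rest of the same autosomes in all 9 TAB-seq libraries. In cortex, the windows had 0.149, 0.161 and 0.144 in replicates 1, 2 and 3, against 0.168, 0.181 and 0.162 in the rest. In olfactory bulb, the windows had 0.128, 0.137 and 0.130, against 0.149, 0.157 and 0.149. In cerebellum, the windows had 0.0891, 0.0890 and 0.0924, against 0.0982, 0.0978 and 0.101. Within a tissue the windows of every library lay below the rest of every library. The mean over autosomes of window minus rest was −0.0191 ± 0.00110 (SD, n = 3) for cortex, −0.0198 ± 0.000804 (n = 3) for olfactory bulb and −0.00891 ± 0.000151 (n = 3) for cerebellum. Relative to the rest, the windows were lower by 11.2% ± 0.298, 13.0% ± 0.681 and 8.99% ± 0.251. Over the 9 libraries the two-sided exact permutation test (signs of the library values flipped) gave p = 0.00391, the smallest it can give, and 0.00781 after adjustment over 4 such tests. Within a tissue of 3 libraries the smallest p is 0.25, which each tissue reached. The test measures the spread between libraries and not that between autosomes. Over the 19 autosomes the SD of the difference was 0.0314, 0.0365 and 0.0340 in cortex, olfactory bulb and cerebellum.

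**Figure D1:**
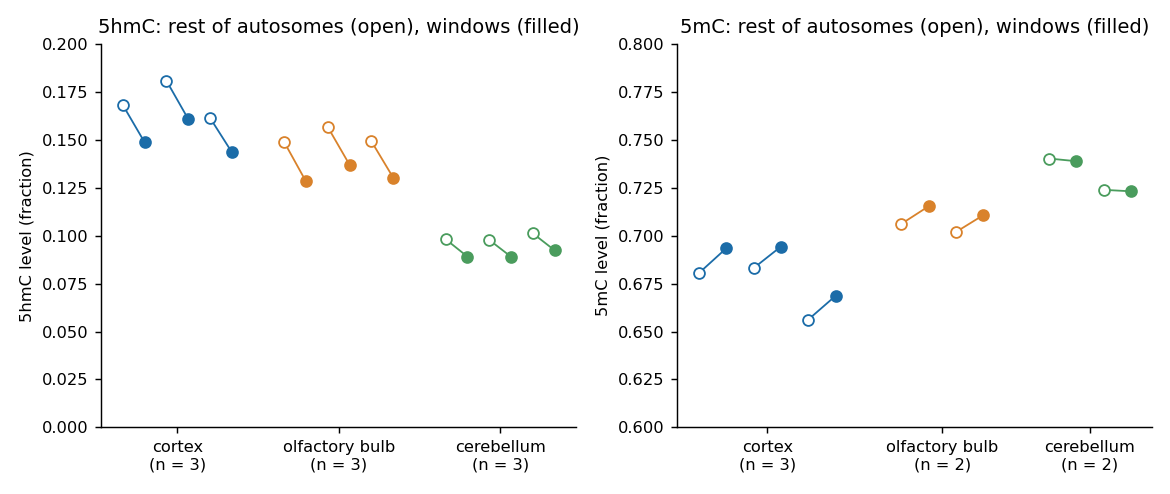
Mean 5hmC level (left) and 5mC level (right), as fractions, in each library. Open circles give the rest of the autosomes and filled circles the first 5 Mb, joined within a library, and the 5mC axis starts at 0.6. The windows lie below the rest in all 9 TAB-seq libraries, above it in the 5 oxBS-seq libraries of cortex and olfactory bulb, and just below it in the 2 of cerebellum.

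The difference from the rest depended on what it was compared with. Against only the bins from 5 to 20 Mb after the first bin, window minus rest was −0.000306 for cortex, and it was no longer negative for olfactory bulb (0.000647) and cerebellum (0.00696), with 0.00243 over all libraries (two-sided exact permutation test, p = 0.0664). When gene share, GC content, CpG density and soft-masked share of the bins entered the fit within each library, a choice made after seeing the data, it was 0.00780 for cortex, 0.0101 for olfactory bulb and 0.00723 for cerebellum, above 0 in all 9 libraries (p = 0.00391, exact permutation test). With gene share, GC content and CpG density alone it stayed at −0.0149, −0.0153 and −0.00487.

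Within the windows, 5hmC was lowest in the first Mb. There it was 0.126 ± 0.00859 (SD over 3 libraries) for cortex, 0.102 ± 0.00503 for olfactory bulb and 0.0748 ± 0.00165 for cerebellum, and in the next Mb 0.158 ± 0.00874, 0.137 ± 0.00424 and 0.0919 ± 0.00167. The first Mb lay below the mean of the next 4 Mb by 0.0318 ± 0.00121 for cortex, 0.0368 ± 0.000974 for olfactory bulb and 0.0192 ± 0.000867 for cerebellum. All 9 libraries had this direction (two-sided exact permutation test, p = 0.00391, adjusted 0.00781), and so did 13, 16 and 12 of 19 autosomes in every library of the respective tissue. The steepest start was on chromosome 16, where the first Mb had 0.0679, 0.0534 and 0.0466 in the 3 tissues and the second 0.201, 0.172 and 0.148. On chromosome 1 the order was the opposite in cortex, by 0.0349 ± 0.00405. The 1 Mb bins just inside the border of 5 Mb had 0.152, 0.134 and 0.0835 in cortex, olfactory bulb and cerebellum and those just outside it 0.164, 0.144 and 0.0996. The low first Mb was not the lowest step along the chromosomes, since the bins from 16 to 17 Mb had 0.117, 0.0968 and 0.0649, lower in each tissue than the first Mb. From 30 Mb on, the means were 0.173, 0.154 and 0.101.

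**Figure D2:**
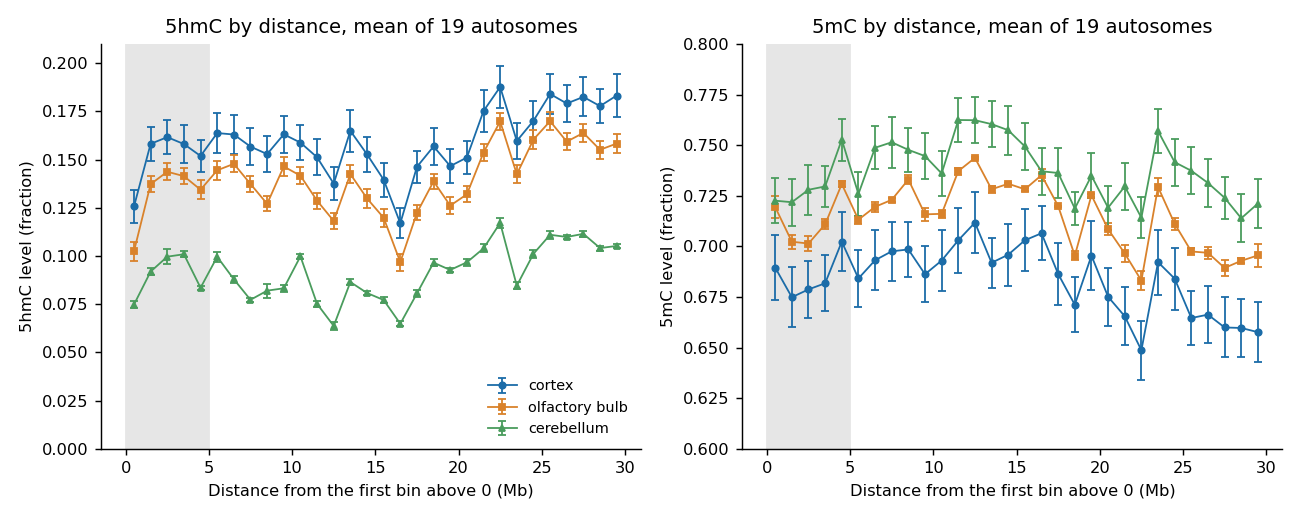
Level by distance from the first bin above 0, in steps of 1 Mb, for 5hmC (left) and 5mC (right). Points are means of the 19 autosomes and bars the SD over libraries (n = 3 per tissue for 5hmC; 3, 2 and 2 for 5mC), the shaded part is the 5 Mb window, and the 5mC axis starts at 0.6. 5hmC is low in the first Mb in each tissue (0.126, 0.102 and 0.0748) and lower still from 16 to 17 Mb (0.117, 0.0968 and 0.0649).

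The windows of single autosomes lay on both sides of their rest. In cortex, 15 autosomes were below it in every library and 3 above it (chromosomes 2, 12 and 17), and in olfactory bulb 15 were below and 4 above (2, 6, 12 and 17). In cerebellum 12 were below and 7 above (2, 10, 11, 12, 16, 17 and 19). Chromosome 3 was the furthest below in cortex, with 0.0976 in the window and 0.168 in the rest. Chromosome 9 was the furthest below in olfactory bulb (0.0887 and 0.160) and in cerebellum (0.0639 and 0.113). Among all consecutive 5 Mb windows of their autosome, those of chromosomes 3, 9 and 14 had the lowest 5hmC in both cortex and olfactory bulb. The highest differences were those of chromosome 17 in cortex (0.0458 ± 0.000773) and olfactory bulb (0.0537 ± 0.00121) and of chromosome 16 in cerebellum (0.0490 ± 0.00198). The windows of chromosomes 16 and 19 were the highest of the 20 and 12 windows of their autosome in cerebellum, while in cortex they were the 9th and 6th from the lowest.

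**Figure D3:**
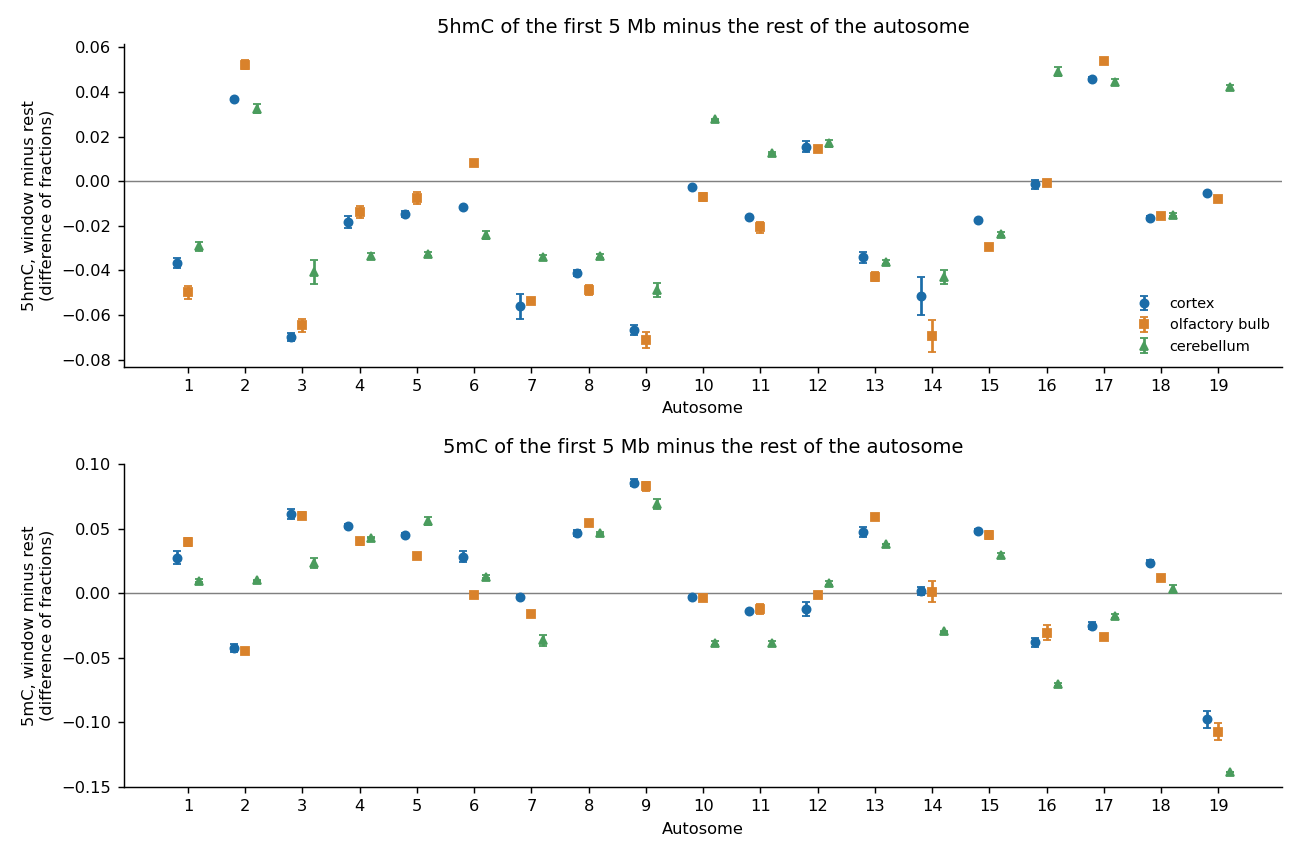
Mean level of the first 5 Mb minus the rest of the same autosome for 5hmC (top) and 5mC (bottom), by autosome and tissue. Points are means over libraries and bars the SD (n = 3 for 5hmC; 3, 2 and 2 for cortex, olfactory bulb and cerebellum in 5mC). For 5hmC most windows lie below 0, chromosome 17 is at 0.0458, 0.0537 and 0.0446, and chromosomes 10, 11, 16 and 19 are above 0 in cerebellum alone, and for 5mC chromosome 19 is far below all others.

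Repeat content ran along with these differences. Over the 19 autosomes, the 5hmC difference had Pearson's r of −0.893 for cortex, −0.901 for olfactory bulb and −0.798 for cerebellum with the difference in soft-masked share, and of 0.655, 0.593 and 0.740 with that in gene share. These are descriptions over 19 autosomes of the same libraries and carry no p-value. Over single bins, r of 5hmC with the soft-masked share was −0.821 in the 95 window bins and −0.803 in the 2318 others in cortex, and −0.709 and −0.665 in cerebellum. In bins of like repeat content the windows were no longer lower throughout. Among bins with over 45% of their bases soft-masked, the 27 window bins had 0.104 ± 0.00669 and the 233 others 0.0944 ± 0.00673 for cortex, 0.0834 ± 0.00457 and 0.0729 ± 0.00416 for olfactory bulb, and 0.0518 ± 0.00219 and 0.0438 ± 0.00124 for cerebellum. From 25 to 35%, the 32 window bins were lower by 0.00359 ± 0.000401 in cortex and higher by 0.00337 ± 0.000564 in cerebellum than the 1203 others. In bins of like gene share the windows were lower in every library from 10 to 50% (−0.0210, −0.0223 and −0.00948 in cortex, olfactory bulb and cerebellum). The same held from 50 to 90% (−0.0183, −0.0181 and −0.0104). At 10% or less (7 window bins) the values were −8.12e-06, 0.000767 and 0.000617, and over 90% the 1 window bin was higher in each tissue. Reads were kept only where they mapped uniquely, and how that acts on repeat-rich bins was not tested.

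**Figure D4:**
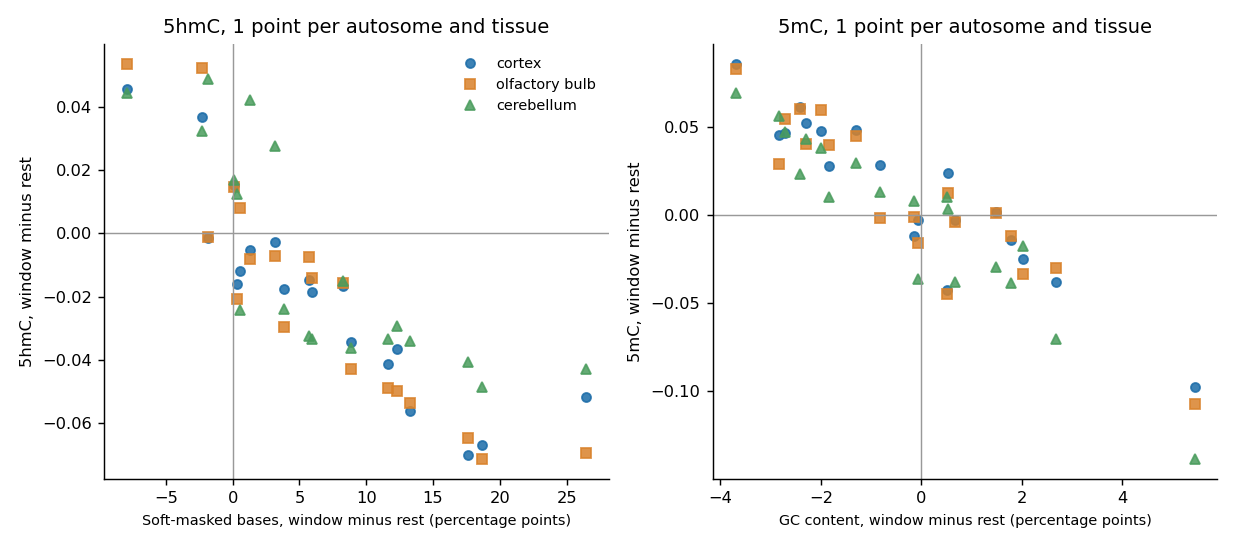
Difference between window and rest, 1 point per autosome and tissue (n = 19 autosomes). Left, 5hmC against the difference in soft-masked bases, and right, 5mC against the difference in GC content, both in percentage points. Autosomes with more repeats in the window have lower 5hmC there (r of −0.893, −0.901 and −0.798), and those with a higher GC content have lower 5mC (r of −0.933, −0.920 and −0.942 in cortex, olfactory bulb and cerebellum).

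5mC did not differ between windows and rest in the same direction in each tissue. In cortex the windows had 0.693, 0.694 and 0.669 in replicates 1 to 3 and the rest 0.680, 0.683 and 0.656. In olfactory bulb the windows had 0.715 and 0.711 and the rest 0.706 and 0.702, and in cerebellum 0.739 and 0.723 and the rest 0.740 and 0.724. Window minus rest was 0.0122 ± 0.000861 (SD, n = 3), 0.00900 ± 0.000282 (n = 2) and −0.00109 ± 0.000448 (n = 2). Over the 7 libraries the two-sided exact permutation test gave p = 0.0625 (adjusted 0.0833), where the smallest possible is 0.0156. Chromosome 19 weighed on this value, and without it window minus rest was 0.00656 in cerebellum and 0.0142 over all libraries (p = 0.0156, exact permutation test, not adjusted). That autosome had the largest absolute 5mC difference, below 0 in each tissue. Leaving it out could only raise the mean, so this p is no separate support. Against the bins from 5 to 20 Mb alone, cortex and olfactory bulb turned to −0.00905 and −0.0114, and with gene share, GC content, CpG density and soft-masked share in the fit to −0.00627 and −0.00910. In bins of like soft-masked share the windows had less 5mC than the other bins in each of 4 classes and in all 7 libraries. Over 45%, for example, the 322 window bins had 0.741 ± 0.0154, 0.767 ± 0.00119 and 0.768 ± 0.0114, and the others 0.747 ± 0.0145, 0.777 ± 0.00219 and 0.781 ± 0.00985. In bins of like gene share the windows had more 5mC in every library in the classes up to 90%, and less over 90%. Windows minus others was 0.0191, 0.0139 and 0.00231 in cortex, olfactory bulb and cerebellum at 10% or less. Over 90% it was −0.0127, −0.0192 and −0.0226.

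The first 100 kb step had the highest 5mC of the first Mb in cortex and olfactory bulb. It was 0.755 ± 0.0176 for cortex, 0.768 ± 0.000393 for olfactory bulb and 0.738 ± 0.0102 for cerebellum, and from 300 to 400 kb the level was 0.646 ± 0.0182, 0.683 ± 0.0111 and 0.692 ± 0.0154. In the first step the order of the tissues was not that of the genome, since cerebellum had the lowest mean. The first Mb as a whole did not differ from the next 4 Mb in 1 direction (0.00506 ± 0.00200, 0.00801 ± 0.00286 and −0.0105 ± 0.0000212, exact permutation p = 0.672 over 7 libraries).

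Between autosomes, 5mC of the windows in cortex ran from 0.570 on chromosome 19 to 0.749 on chromosome 3. Chromosome 9 was the furthest above its rest (0.0857 ± 0.00294, 0.0829 ± 0.00327 and 0.0693 ± 0.00382 in cortex, olfactory bulb and cerebellum). Chromosome 19 was the furthest below (−0.0978 ± 0.00641, −0.108 ± 0.00659 and −0.139 ± 0.0000436), with 0.570, 0.593 and 0.583 in its window, the lowest of the 12 windows of that autosome in each tissue. Its window also had the highest GC content and the most genes. Every library of cortex was above the rest in 10 autosomes and below it in 8, in olfactory bulb in 9 and 8, and in cerebellum in 12 and 7. Over the 19 autosomes the 5mC difference had r of −0.933, −0.920 and −0.942 with that in GC content, and r of −0.610, −0.602 and −0.678 with the 5hmC difference (descriptions without a p-value).

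The size of window minus rest of cerebellum did not overlap with that of the other tissues in any library, in a design that cannot give a p below 0.1. For 5hmC, cerebellum minus cortex was 0.0102 and cerebellum minus olfactory bulb 0.0108, with no overlap of libraries (exact permutation, p = 0.1 each, adjusted 0.15 over 3 pairs), while olfactory bulb and cortex overlapped (−0.000636, p = 0.5, exact). As a percentage of the rest, cerebellum minus cortex was 2.24, cerebellum minus olfactory bulb 4.04 and olfactory bulb minus cortex −1.80 percentage points (p = 0.1 each, exact). With the soft-masked share in the fit, cerebellum minus cortex turned to −0.000571 and cerebellum minus olfactory bulb to −0.00282. For 5mC, cerebellum minus cortex was −0.0133 (p = 0.1, exact, adjusted 0.15) and olfactory bulb minus cortex −0.00322 (p = 0.1, exact, adjusted 0.15). Cerebellum minus olfactory bulb was −0.0101, with 2 libraries against 2 and no p below 0.333 possible.

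Between tissues, the commoner direction in single window bins was that of all bins, which include the windows and chromosome X. In the fit without centring, the shares departed most from those of all bins between cerebellum and olfactory bulb. On the log2(level/(1 − level)) scale, called the log2 ratio from here on, limma called 69 of 95 window bins lower for 5hmC in olfactory bulb than in cortex (72.6%, against 67.7% of all 2581 bins) and 3 higher (3.16%, against 3.25%). In cerebellum 91 were lower than in cortex (95.8%, against 97.6%) and 1 higher (1.05%, against 0.426%), and 79 were lower than in olfactory bulb (83.2%, against 91.8%) and 1 higher (1.05%, against 1.2%). For 5mC, 336 of 949 window bins were higher in olfactory bulb than in cortex (35.4%, against 37.6% of all 25664 bins) and 24 lower (2.53%, against 2.18%). In cerebellum 624 were higher than in cortex (65.8%, against 71.9%) and 53 lower (5.58%, against 4.44%), and 267 were higher than in olfactory bulb (28.1%, against 35.3%) and 79 lower (8.32%, against 7.69%). The medians of the windows were −0.252, −0.968 and −0.650 for 5hmC in these 3 comparisons, against −0.240, −0.967 and −0.719 for all bins, and for 5mC 0.209, 0.354 and 0.133 against 0.220, 0.431 and 0.193. Fewer 5mC window bins were called higher in olfactory bulb than in cortex when olfactory bulb replicate 1 or replicate 2 was left out. The same held for cerebellum above olfactory bulb without cerebellum replicate 1. Such a fit leaves 1 library in a tissue, so these falls cannot be told apart from a loss of power. Shares over all bins are not given here for such fits. With each library centred on its median, the calls of the windows split otherwise. For 5hmC 28.4% were then higher (against 36.2% of all bins) and 35.8% lower (33%) in olfactory bulb than in cortex. In cerebellum 50.5% were higher (50.3% of all bins) and 41.1% lower (40.1%) than in cortex, and 50.5% higher (50.9%) and 37.9% lower (39.1%) than in olfactory bulb. For 5mC 6.11% were higher (8.81% of all bins) and 8.85% lower (9.9%) in olfactory bulb than in cortex. In cerebellum 17.7% were higher (25.7%) and 28.9% lower (24.3%) than in cortex, and 16.2% higher (22.1%) and 26.6% lower (21.3%) than in olfactory bulb.

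The 3 window bins with the highest 5hmC lay over long neuronal or chromatin genes. The bin chr17:5000001-6000000 had 0.251 ± 0.0100 (SD, n = 3) for cortex, 0.251 ± 0.00686 for olfactory bulb and 0.224 ± 0.00667 for cerebellum. It holds Arid1b, a subunit of BAF chromatin remodelling complexes, Zdhhc14, a palmitoyltransferase, and Snx9, a sorting nexin of endocytosis. The bin chr16:6000001-7000000 lies wholly in Rbfox1, a neuronal splicing factor. It had 0.223, 0.239 and 0.220 for cortex, 0.220, 0.226 and 0.217 for olfactory bulb and 0.259, 0.263 and 0.268 for cerebellum. Here cerebellum was the highest tissue without overlap, and it is the 1 window bin called higher in cerebellum than in cortex (log2 ratio 0.28, SE 0.0732, adjusted p = 0.000121) and in olfactory bulb (0.33, SE 0.0732, adjusted p = 7e-06). The bin chr2:6000001-7000000, with Celf2 (a regulator of RNA splicing), Usp6nl (a GTPase-activating protein) and Upf2 (a factor of nonsense-mediated decay), had 0.226 ± 0.0125, 0.242 ± 0.00545 and 0.189 ± 0.00130. In the bins of chromosomes 17 and 2 cerebellum was lower than cortex (log2 ratio −0.22 and −0.32), but higher once libraries were centred on their medians (0.82 and 0.72).

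The 3 lowest were repeat-rich. The bin chr3:3000001-4000000, with 57.3% of its bases soft-masked and Hnf4g (a nuclear receptor of gut and kidney) as its one coding gene, had 0.0542 ± 0.00605, 0.0422 ± 0.00336 and 0.0205 ± 0.00106. The bin chr7:7000001-8000000, which holds Vmn2r35 beside the gene models Gm45844 and Gm45783, had 0.0519 ± 0.00178, 0.0399 ± 0.00183 and 0.0306 ± 0.00275. The bin chr9:3000001-4000000, with Gucy1a2 (a subunit of soluble guanylate cyclase), Cwf19l2 and Alkbh8 (a tRNA methyltransferase), had 0.0588 ± 0.0125, 0.0454 ± 0.0124 and 0.0293 ± 0.000625. One window bin of chromosome 3 had a library apart from the others, chr3:5000001-6000000 with 0.0557, 0.0563 and 0.116 in cerebellum, chosen here after its values were seen.

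Between tissues, the largest falls of 5hmC among the window bins were in cerebellum. The bin chr13:5000001-6000000, with Klf6 (a zinc finger transcription factor), had 0.170, 0.183 and 0.169 for cortex, 0.114, 0.126 and 0.118 for olfactory bulb and 0.0560, 0.0555 and 0.0567 for cerebellum. No libraries overlapped, and cerebellum minus cortex was −1.83 on the log2 ratio scale (SE 0.0732, adjusted p = 3.47e-133; the fit gave all 5hmC bins the same SE). The bin chr6:6000001-7000000 holds Slc25a13 (a mitochondrial aspartate and glutamate carrier), Sdhaf3 and the end of Dync1i1 (a dynein intermediate chain). It had 0.173 ± 0.0122, 0.201 ± 0.00475 and 0.0791 ± 0.00165, and cerebellum minus olfactory bulb was −1.55 (SE 0.0732, adjusted p = 8.28e-97). Against cortex, olfactory bulb rose the most in chr2:7000001-8000000, the upstream part of Celf2 (0.193, 0.198 and 0.180 in cortex and 0.230, 0.237 and 0.220 in olfactory bulb, log2 ratio 0.34, SE 0.0732, adjusted p = 1.14e-05). It fell the most in chr1:3000001-4000000 with Xkr4, a phospholipid scramblase family gene (0.160, 0.178 and 0.148 against 0.0960, 0.106 and 0.105, log2 ratio −0.76, SE 0.0732, adjusted p = 3.32e-23).

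The gene starts shown next lie in the low 5mC bins of chromosomes 2 and 19 and in the low 5hmC bin of chromosome 7, and show starts with many and with few CpG sites. Each is a RefSeq window of 300 bases around a gene start (GRCm38.p6), on the strand of the gene, with CpG sites in capitals.
Celf2, chr2:6871986-6872285, minus strand: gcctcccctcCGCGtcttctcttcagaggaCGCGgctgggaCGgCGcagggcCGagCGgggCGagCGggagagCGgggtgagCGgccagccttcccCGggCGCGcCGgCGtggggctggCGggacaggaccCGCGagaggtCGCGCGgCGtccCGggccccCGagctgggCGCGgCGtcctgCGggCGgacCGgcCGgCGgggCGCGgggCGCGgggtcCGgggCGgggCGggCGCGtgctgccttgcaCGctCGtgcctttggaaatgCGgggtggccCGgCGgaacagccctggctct
Plcb3, chr19:6969765-6970064, minus strand: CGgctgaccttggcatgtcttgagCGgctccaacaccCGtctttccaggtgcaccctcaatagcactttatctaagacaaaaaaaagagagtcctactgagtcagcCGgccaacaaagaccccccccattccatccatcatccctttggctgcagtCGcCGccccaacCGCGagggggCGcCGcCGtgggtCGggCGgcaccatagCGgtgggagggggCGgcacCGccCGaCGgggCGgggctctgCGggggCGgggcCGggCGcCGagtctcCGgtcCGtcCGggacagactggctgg
Vmn2r35, chr7:7819818-7820117, minus strand: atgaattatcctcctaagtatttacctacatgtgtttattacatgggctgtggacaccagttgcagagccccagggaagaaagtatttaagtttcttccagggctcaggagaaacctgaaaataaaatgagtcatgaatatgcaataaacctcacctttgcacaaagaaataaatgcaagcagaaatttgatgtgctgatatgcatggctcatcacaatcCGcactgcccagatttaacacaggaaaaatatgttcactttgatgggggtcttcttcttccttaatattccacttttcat
These windows hold 48, 27 and 1 CpG sites, where the median of 31396 such windows on autosomes is 7. Windows with 20 or more sites made up 27.0% of all and those with 3 or fewer 30.9%. The other starts of Celf2 held 8, 4, 6 and 6 sites, that of Esrra, beside Plcb3, 25 and that of Kcnk4 in the same bin 5. Of 28 genes named in the bins, 18 had a RefSeq start window. The promoters are far shorter than a bin, and their own level was not measured here.

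The lowest 5mC of the windows was found on chromosomes 6, 19 and 2. The bin chr6:6800001-6900000, with the homeobox genes Dlx6 and Dlx5 of forebrain interneuron development, had 0.391, 0.368 and 0.378 for cortex, 0.207 and 0.194 for olfactory bulb and 0.433 and 0.425 for cerebellum. Olfactory bulb was the lowest tissue without overlap, with −1.29 against cortex on the log2 ratio scale (SE 0.117, adjusted p = 5.24e-23) and cerebellum 1.58 above it (SE 0.129, adjusted p = 7.48e-30). In the named 5mC bins the SE was 0.117 to 0.118 against cortex and 0.129 between cerebellum and olfactory bulb. It thus reflects a spread shared over bins more than that of the bin's own 2 or 3 libraries per tissue. The bin chr19:6900001-7000000 with Plcb3 (a phospholipase C), Esrra (an orphan nuclear receptor) and Kcnk4 (a potassium channel) had 0.341, 0.366 and 0.297, then 0.373 and 0.316, then 0.344 and 0.353, so that the tissues overlapped. The bin chr2:6800001-6900000, which holds the Celf2 start shown above, had 0.348, 0.371 and 0.336 for cortex, 0.262 and 0.276 for olfactory bulb and 0.435 and 0.396 for cerebellum.

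The largest rises of 5mC in cerebellum were upstream in the same gene. In chr2:7200001-7300000, inside Celf2, cortex had 0.569, 0.537 and 0.520, olfactory bulb 0.584 and 0.620, and cerebellum 0.806 and 0.786, and cerebellum minus cortex was 1.73 (SE 0.118, adjusted p = 1.2e-40). In the next bin, chr2:7300001-7400000, cerebellum minus olfactory bulb was 1.74 (SE 0.129, adjusted p = 2.05e-35). The 1 Mb bin around both had the 5hmC that was higher in olfactory bulb than in cortex and lowest in cerebellum (0.190, 0.229 and 0.108). The largest fall in cerebellum was in chr10:7100001-7200000 with Cnksr3, a scaffold gene of kinase signalling. There cortex had 0.642, 0.645 and 0.606, olfactory bulb 0.716 and 0.708, and cerebellum 0.383 and 0.351, which is −1.56 against cortex (SE 0.117, adjusted p = 3.51e-34) and −2.09 against olfactory bulb (SE 0.129, adjusted p = 3.89e-49). The bins on either side had 0.772 and 0.575 in cerebellum. The largest rise in olfactory bulb over cortex was in chr1:3600001-3700000 at the start of Xkr4 (0.545, 0.556 and 0.471 against 0.660 and 0.684, log2 ratio 0.89, SE 0.118, adjusted p = 1.81e-11), in the 1 Mb bin where its 5hmC fell the most.

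The highest 5mC was found on chromosomes 9 and 18. The bin chr9:7000001-7100000, inside Dync2h1 (a dynein of cilia), had 0.791 ± 0.0229 (n = 3), 0.840 ± 0.00394 (n = 2) and 0.867 ± 0.0184 (n = 2). A bin with part of Mpp7, a scaffold of cell junctions, on chromosome 18 had 0.815 ± 0.0118, 0.834 ± 0.00207 and 0.843 ± 0.0131, and chr9:4800001-4900000, with no coding gene and 61.9% of its bases soft-masked, had 0.801 ± 0.0170, 0.830 ± 0.00540 and 0.846 ± 0.00383.

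**Figure D5:**
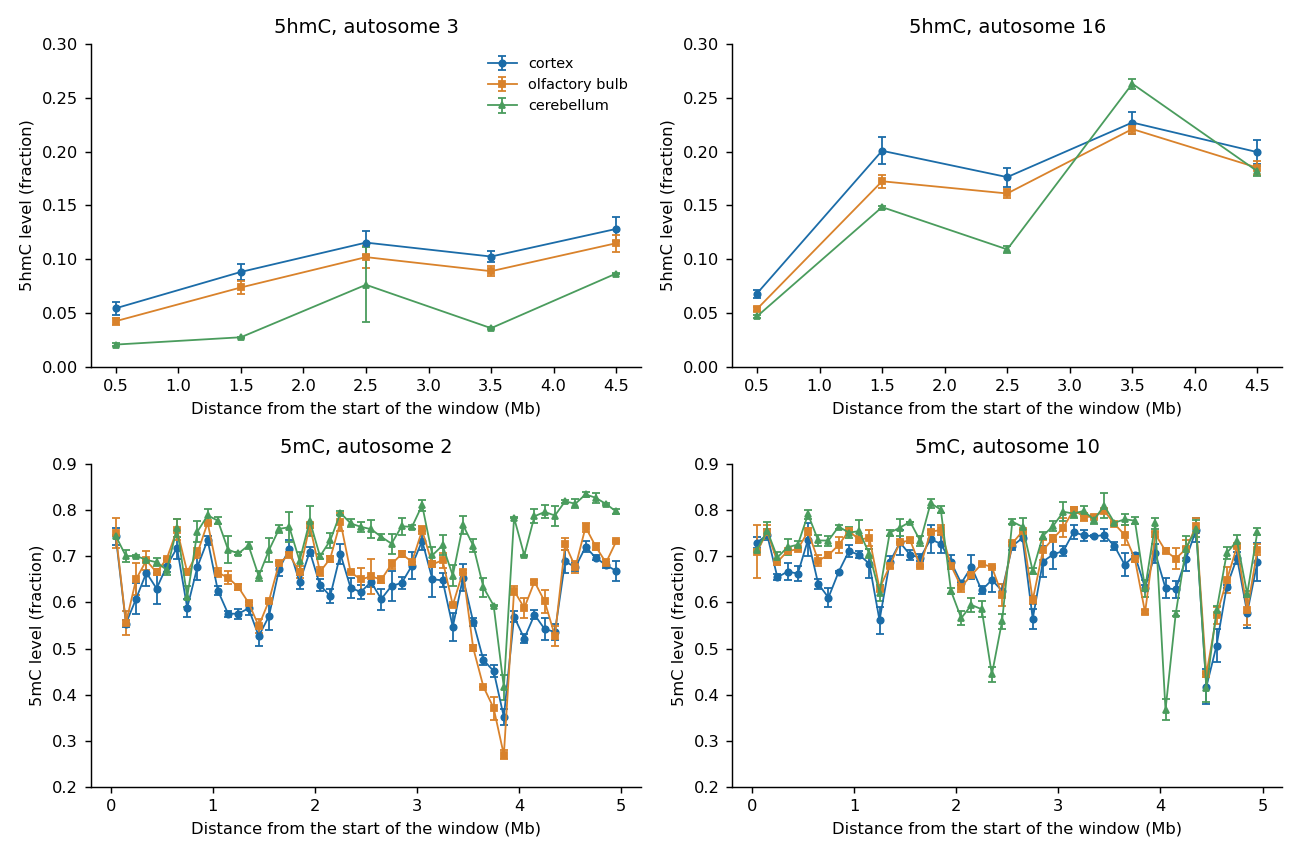
Levels along 4 windows by distance from the window's start, for 5hmC on autosomes 3 and 16 (bins of 1 Mb) and 5mC on autosomes 2 and 10 (bins of 100 kb, axis from 0.2). Points are means over libraries and bars the SD (n = 3 for 5hmC; 3, 2 and 2 for 5mC). 5hmC of cerebellum rises to 0.263 in the fourth bin of autosome 16, 5mC of autosome 2 drops to 0.351, 0.269 and 0.416 near 3.8 Mb, and on autosome 10 cerebellum alone drops to 0.367 near 4 Mb.

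Genes of brain function were listed with earlier results of these data known, and 22 of 23 overlapped a window. That count follows from the list and says nothing of brain genes at large. Averaged over the 100 kb bins each touches, 17 of the 22 had higher 5mC in every library of cerebellum than in every library of cortex, 4 lower and 1 overlapping, with a median difference of 0.0561 against 0.0585 over all bins. Of all 100 kb bins, 76.3% were higher and 5.62% lower by the same rule. Between olfactory bulb and cortex 9 of the genes were higher and 6 lower (61% and 4.04% of all bins), and between cerebellum and olfactory bulb 15 were higher and 4 lower (58.6% and 16.2%). For 5hmC, in the 1 Mb bins of these genes, 0 were higher in any of the 3 comparisons (3.33%, 0.387% and 1.39% of all bins), 14 were lower in olfactory bulb than in cortex (68.2%), 20 lower in cerebellum than in cortex (97.5%) and 18 lower in cerebellum than in olfactory bulb (92.6%). Lower 5mC in every library of cerebellum than of cortex was found in 4 genes. They were Gria4 (an AMPA receptor subunit), Syne1 (a nesprin of the nuclear envelope), Nrxn2 (a neurexin of synapses) and Plcxd3. Syne1 had 0.651 ± 0.0127, 0.658 ± 0.00233 and 0.562 ± 0.0146 in cortex, olfactory bulb and cerebellum. Its 5hmC was 0.190, 0.178 and 0.184, so that cerebellum, at 0.102 in the rest of that autosome, overlapped with the other tissues. Nrxn2 had 5mC of 0.508 ± 0.00406, 0.438 ± 0.00306 and 0.467 ± 0.00802. Olfactory bulb was the lowest tissue in several genes. Cdk14, a cyclin-dependent kinase, had 0.669 ± 0.0190, 0.612 ± 0.00760 and 0.774 ± 0.0124, and Dync1i1 0.655 ± 0.0205, 0.580 ± 0.0182 and 0.735 ± 0.0231. Rbfox1 had 0.616 ± 0.00855, 0.671 ± 0.00702 and 0.650 ± 0.0123 over 17 bins.

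The imprinted genes listed were only those around Peg10 on chromosome 6 (5 genes) and around Peg3 on chromosome 7 (6 genes). Both groups lie in windows. That all 11 overlapped a window was thus set by the list and says nothing of other imprinted genes. They share bins, so that they are not separate measurements. 5hmC was lower in every library of cerebellum than of cortex for all 11 (97.5% of all 1 Mb bins were), with 0.113 ± 0.00478 for cortex, 0.0968 ± 0.00702 for olfactory bulb and 0.0750 ± 0.00178 for cerebellum in the bin of the Peg3 group. 5mC was higher in cerebellum without overlap for 8 and overlapped for 3 (76.3% of all 100 kb bins were higher). That of the bin with Peg3, a paternally expressed zinc finger gene, was 0.647 ± 0.0135, 0.647 ± 0.00167 and 0.680 ± 0.000505, and that of Peg10, a retrotransposon-derived gene, 0.696 ± 0.0256, 0.686 ± 0.0130 and 0.713 ± 0.00562. Zim1 and Zim2 shared a bin with 0.782 ± 0.00951, 0.796 ± 0.000310 and 0.786 ± 0.00249, above the rest of chromosome 7 (0.667, 0.698 and 0.705). Of 9 genes of DNA methylation and its oxidation, 1 lay in a window, the de novo methyltransferase gene Dnmt3a on chromosome 12. Its bins had 5mC of 0.513 ± 0.0143, 0.521 ± 0.00134 and 0.531 ± 0.00691, against 0.680, 0.708 and 0.741 in the rest of the autosome, and 5hmC of 0.178, 0.160 and 0.129, against 0.166, 0.152 and 0.0920.

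Window bins with receptor or zinc finger genes had less 5hmC than the other window bins. With a vomeronasal receptor gene (5 bins) the level was 0.0842 ± 0.00480 for cortex, 0.0707 ± 0.00404 for olfactory bulb and 0.0519 ± 0.000966 for cerebellum, against 0.155 ± 0.00911, 0.135 ± 0.00457 and 0.0923 ± 0.00196 in the 90 bins without. With a zinc finger gene (10 bins) it was 0.111, 0.0948 and 0.0630. The 5mC of the 17 bins of 100 kb with a vomeronasal receptor gene was above that of the other 932 in cortex (0.715 and 0.685) and below it in cerebellum (0.683 and 0.732). Of the bins with a vomeronasal receptor gene, 3 of 5 (1 Mb) and 15 of 17 (100 kb) lay on chromosome 7, and of the 1 Mb bins with a zinc finger gene 4 of 10. The part of that chromosome in these values was not tested.

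Of both modifications together, a smaller share was 5hmC in the windows. From tissue means of the 2413 autosomal 1 Mb bins, 5hmC made up 18.1% of 5hmC plus 5mC in the windows of cortex and 20.2% in the rest, 15.6% and 17.7% in olfactory bulb, and 11.0% and 11.9% in cerebellum. The differences were −2.12, −2.13 and −0.947 percentage points, with 14, 13 and 12 of 19 autosomes below the rest. The sum of both was close in windows and rest, at 0.836 and 0.844 for cortex, 0.845 and 0.856 for olfactory bulb, and 0.821 and 0.831 for cerebellum. The labels do not tie TAB-seq and oxBS-seq libraries to each other, so no share of paired libraries and no test was formed.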

How the data were processed

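Genomic DNA of 3 mouse brain tissues was profiled by TAB-seq (9 libraries) and oxBS-seq (7 libraries). Per the study's methods, paired reads were mapped uniquely to mm10 with Bismark (version not given in the sources used here), CpG sites were called with a binomial model and a coverage of at least 5, and the authors deposited each bin's level as a fraction (1 Mb bins for 5hmC, 100 kb bins for 5mC). How sites were combined within a bin is not given in the sources used here. No read counts come with the fractions, so depth is unknown and precision rests on the libraries. The 6 RNA-seq samples were not used.

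Bins at 0 or 1 in any library were left out. Window minus rest was averaged over 19 autosomes per library and tested by two-sided exact permutation over libraries (SciPy 1.17.1), with Benjamini-Hochberg adjustment. These tests measure the spread between libraries, not that between autosomes. Bins were compared between tissues with limma 3.58.1 (R 4.3.3) on log2(level/(1 − level)), adjusted over all bins (calls at 0.05). The fit was tested on simulated data. GC content, CpG density and soft-masked share came from GRCm38.p6 RefSeq sequence, genes from GENCODE annotation of the same build. Tables were handled in Python 3.11.15 with pandas 2.3.3 and numpy 2.4.6, and plots drawn with matplotlib 3.10.9.

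Named bins were the 3 highest and 3 lowest of each assay and, per pair of tissues, the largest called rise and fall without overlap of libraries, each with up to 3 coding genes of longest overlap. Members, lists and tests were chosen with earlier results of these data known. Alternatives were windows of 3 and 10 Mb, the nearby rest (to 20 Mb), leaving out the first Mb, chromosome 19 or 1 library, covariates, centring, other scales, 1 Mb averages for 5mC, and a replicate block.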

Additional observations from a re-analysis of the deposited data

Results flagged for a closer look

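In several windows every library of 1 tissue lay above the rest of its autosome and every library of another below it. These differences in direction were not tested, and no cause was tested.

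For 5hmC, chromosome 6 had 0.00804 in olfactory bulb and −0.0117 in cortex, and −0.0241 in cerebellum against the same 0.00804 in olfactory bulb. Chromosome 10 had 0.0277 in cerebellum, −0.00253 in cortex and −0.00714 in olfactory bulb. Chromosome 11 had 0.0124 in cerebellum, −0.0161 in cortex and −0.0208 in olfactory bulb. Chromosome 19 had 0.0422 in cerebellum, −0.00535 in cortex and −0.00814 in olfactory bulb. Chromosome 16 had 0.0490 in cerebellum and −0.000981 in olfactory bulb.

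For 5mC, chromosome 6 had −0.00176 in olfactory bulb, 0.0284 in cortex and 0.0129 in cerebellum. Chromosome 2 had 0.00988 in cerebellum, −0.0426 in cortex and −0.0451 in olfactory bulb. Chromosome 12 had 0.00772 in cerebellum and −0.0120 in cortex. The mean of the 19 autosomes was −0.00109 in cerebellum, 0.0122 in cortex and 0.00900 in olfactory bulb.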

How the results depend on the processing

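Without chromosome 19 the 5hmC difference could only fall further, since that autosome lay above the mean of each tissue. It had −0.00535, −0.00814 and 0.0422 in cortex, olfactory bulb and cerebellum. The lower 5hmC of the windows kept its direction in every tissue with windows of 3 and 10 Mb and without the first Mb. It also did so without any 1 library and with gene share, GC content and CpG density in the fit. Against the rest from 5 to 20 Mb it was −0.000306 for cortex, 0.000647 for olfactory bulb, 0.00696 for cerebellum and 0.00243 over all libraries, and olfactory bulb minus cortex was 0.000953 (0.000366 without the first Mb). With the soft-masked share also in the fit, chosen after seeing the data, it was 0.00780, 0.0101 and 0.00723 in cortex, olfactory bulb and cerebellum and 0.00836 over all libraries, and the differences between tissues were 0.00225 (olfactory bulb minus cortex), −0.000571 (cerebellum minus cortex) and −0.00282 (cerebellum minus olfactory bulb).

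The 5mC values were less stable. A window of 10 Mb gave 0.00558 in cerebellum and 0.0124 over all libraries, leaving out the first Mb 0.000992 and 0.00718, and leaving out chromosome 19 0.00656 and 0.0142. Chromosome 19 had the largest absolute 5mC difference, below 0 in each tissue, so leaving it out could only raise the values. The rest from 5 to 20 Mb gave −0.00905 in cortex, −0.0114 in olfactory bulb and −0.0111 over all libraries. Gene share, GC content and CpG density gave −0.000240 in olfactory bulb and −0.00129 over all libraries. With the soft-masked share also in the fit, the values were −0.00627 in cortex, −0.00910 in olfactory bulb and −0.00783 over all libraries. Cerebellum minus olfactory bulb was then 0.000192.

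Calls of window bins moved most when libraries were centred on their medians. For 5hmC, 28.4% were then higher and 35.8% lower in olfactory bulb than in cortex, 50.5% and 41.1% in cerebellum than in cortex, and 50.5% and 37.9% in cerebellum than in olfactory bulb. For 5mC the shares were 6.11% and 8.85%, 17.7% and 28.9%, and 16.2% and 26.6%. Over all bins the same calls came to 36.2% and 33%, 50.3% and 40.1%, and 50.9% and 39.1% for 5hmC, and to 8.81% and 9.9%, 25.7% and 24.3%, and 22.1% and 21.3% for 5mC. Centring also turned the 5hmC of cerebellum above that of cortex and olfactory bulb in the named bins of chromosome 17 (0.82 and 0.58), chromosome 2 from 6000001 (0.72 and 0.35) and chromosome 7 (0.24 and 0.40), above cortex in chromosome 2 from 7000001 (0.082) and above olfactory bulb in chromosome 1 (0.35). On the fraction scale 5.26% of 5hmC bins were higher in olfactory bulb than in cortex. Windows of 3 Mb had 0% higher for 5hmC in each comparison, and of 10 Mb 0.526% higher in cerebellum than in either tissue. With all bins kept and 5mC levels held at least 0.001 from 0 and 1, 20.1% were higher in olfactory bulb than in cortex and 5.37% lower in cerebellum than in olfactory bulb. In 1 Mb averages 58.9% were higher and 0% lower in olfactory bulb than in cortex, and 2.11% lower in cerebellum than in cortex. The 5hmC share of both modifications differed by −2.29, −2.45 and −1.03 percentage points with windows of 3 Mb, by −1.88, −1.88 and −1.37 with 10 Mb and by −2.51, −2.58 and −1.06 by medians. Except for centring, called shares over all bins are not given here for these alternatives. The moves in calls can thus not be read as particular to the windows. The causes of these shifts were not tested.

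Without 1 library at a time, 2.11% to 6.32% of 5hmC window bins were higher in olfactory bulb than in cortex (6.32% without cortex replicate 2). For 5mC, 8.64% to 33.9% were higher and 1.37% to 3.48% lower in olfactory bulb than in cortex, 45.8% to 65.8% higher and 2.95% to 7.90% lower in cerebellum than in cortex, and 13.7% to 33.2% higher and 2.53% to 10.9% lower in cerebellum than in olfactory bulb. The largest of these moves came with 1 library left in a tissue, which was then assumed to vary like the others: 8.64% without olfactory bulb replicate 1, 13.3% without olfactory bulb replicate 2 (both higher than cortex), 13.7% without cerebellum replicate 1, and 2.53% and 2.95% without cerebellum replicate 2. Moves over 1.5 times also came without cortex replicate 1 (3.27% lower in cerebellum than in cortex) and without olfactory bulb replicates 1 and 2, with 1.58% and 1.37% lower in olfactory bulb than in cortex, 17.9% and 15.3% higher and 4.11% and 4.004% lower in cerebellum than in olfactory bulb. Called shares over all bins are not given here for these fits, so the moves cannot be read as particular to the windows. Window minus rest of the 5hmC share in cerebellum ran from −0.959 to −0.934 percentage points. Replicate numbers are shared between tissues, and the deviations of same-numbered libraries correlated at r of −0.191 to 0.429 (mean 0.0945, 9 pairs) for 5hmC, against −0.408 to 0.276 (mean −0.0459, 18 pairs) between other numbers, and at −0.0932 to 0.0290 (6 pairs) against −0.0301 to 0.0932 (10 pairs) for 5mC. Not every same-numbered pair was over 0.1, and the numbers were not taken as pairing the libraries, but this cannot exclude pairing. For 5hmC, cerebellum and olfactory bulb had r of 0.391, 0.429 and 0.0566 for replicates 1, 2 and 3. For 5mC, the deviations of a tissue with 2 libraries mirror each other, so each r recurs with the opposite sign and the comparison cannot decide. With the replicate number as a block, cerebellum minus cortex stood at 0.0102 (5hmC) and −0.0132 (5mC). In that fit 26.3% of 5mC window bins were higher in olfactory bulb than in cortex, and the share over all bins is not given here. The fractions hold no counts, so what depth limits cannot be given.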
